A study of Homo sapiens with 9 samples.

Results

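The 47 genes described here carry cells from the G1 phase of the cell cycle into DNA replication: cyclins, cyclin-dependent kinases (CDKs) and their inhibitors, the RB and E2F proteins, the factors that load and start the replicative helicase, the DNA polymerases and their partners, and the enzymes that make deoxynucleotides. They were chosen by symbol, and all 47 were found among the 51796 genes of the deposited count table. CCNE1 and CDC25A were singled out with earlier results of these data known. Of the 47 genes, 46 passed the filter on low counts and were tested. The exception was CCND2, the gene for cyclin D2, with between 0 and 4 reads in any library, so no fold change is given for it.

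RNA was sequenced from A549, an established human lung adenocarcinoma cell line, grown in RPMI with 10% serum. All cells carried a stable short hairpin RNA and were kept under 1 µg/ml puromycin. The hairpin was directed against GFP in the control, against PRMT5 in the first knockdown and against MEP50 (gene symbol WDR77) in the second, with 3 libraries per group that the labels call biological replicates. PRMT5 is a protein arginine methyltransferase and MEP50 is the partner protein it works with. The p-values measure the spread between these libraries, and the labels do not say how many hairpins or separately infected lines stand behind a group, so loss of the target and the particular hairpin or line cannot be told apart.

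In early G1, cyclin D with CDK4 or CDK6 begins to phosphorylate RB, and cyclin E with CDK2 completes this step, which frees E2F transcription factors from repression. CDC25A removes inhibitory phosphates from CDK2, while inhibitors such as p27 (CDKN1B) and p18 (CDKN2C) hold the kinases back. E2F proteins drive many replication genes, whose products load the MCM helicase at origins, start it in S phase and copy the DNA. In bulk RNA of a growing culture, fewer cells in a phase and less RNA per cell cannot be told apart.

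Reads on genes numbered between 20806181 and 31586128 per library, and values are given as CPM (counts scaled to the size of the library) in replicate order 1 to 3. PRMT5 itself fell to 33.1% of the control in its own knockdown and WDR77 to 31.8% in its own. Reads outside annotated genes made up 11.9 to 12.4% of assigned and unassigned reads in the control, 13.7 to 14.5% in the PRMT5 knockdown and 12.3 to 13.8% in the MEP50 knockdown. Keratins 8 and 18 were abundant, with KRT8 alone at 3223 CPM in the control, while KRT19 had 2 reads and EPCAM 48 reads over all 9 libraries. The summed level of 5 epithelial markers was 6342 to 6573 CPM in the control, 4150 to 4311 CPM in the PRMT5 knockdown and 3866 to 4142 CPM in the MEP50 knockdown, and that of 7 stroma markers was 108 to 110.2, 221 to 233 and 272 to 290.3 CPM, nearly all of it COL3A1. Both sums hide a member that went its own way: CDH1 of the epithelial list measured 41.7, 40.02 and 38.5 CPM in the control, 37.1, 32.3 and 35.3 CPM in the PRMT5 knockdown and 66.4, 77.3 and 83.1 CPM in the MEP50 knockdown, and LUM of the stroma list 5.71, 5.36 and 4.46 CPM in the control, 0.868, 0.387 and 0.631 CPM in the PRMT5 knockdown and 7.73, 7.90 and 8.07 CPM in the MEP50 knockdown. CDH1 was thus highest in the MEP50 knockdown and LUM lowest in the PRMT5 knockdown, against the direction of their lists. The 9 blood and endothelial markers together stayed at or under 0.438 CPM, with 3 of the 9 at no read at all. The part of these marker shifts in the results was not tested. CDKN2A and CDKN2B, the inhibitor genes known to be deleted in A549, had 0 reads in every library, which allows a level of up to 0.144 CPM in the shallowest (3 reads, counting error only).

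The genes moved in both directions in each knockdown, and most moved little. In edgeR's quasi-likelihood test over 14582 genes, called at a Benjamini-Hochberg adjusted p under 0.05, 19 of the 46 tested genes were higher and 14 lower in the PRMT5 knockdown than in the GFP control, and 13 were not called. Over all genes tested, 26.1% were higher and 24.9% lower, so the count of higher genes lies above the background and that of lower genes near it. The MEP50 knockdown had 14 genes higher and 17 lower than the control, with 15 not called, beside 26.5% higher and 25.2% lower over all genes, so there the count of lower genes is the one above the background. The median log2 fold change of the 46 genes was 0.05 against 0.00 for all genes after PRMT5 knockdown, and -0.03 after MEP50 knockdown, where that of all genes was again close to 0. Both comparisons use the same 3 control libraries. Libraries of knockdown and control did not overlap for 36 of the 46 genes in the PRMT5 knockdown, beside 8344 of all 14582 genes. For the MEP50 knockdown these counts were 32 and 8304. Between the knockdowns they were 34 and 6888, so separate groups of libraries were common over all genes too. The background was not matched for expression level, so an excess over genes of similar read depth was not tested.

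Large changes were few. A called change of 1.5-fold or more was seen for 3 genes in the PRMT5 knockdown, CCND1, CCND3 and CDKN1B, where 14.3% of all genes had one. In the MEP50 knockdown it was seen for 4 genes, CCND3, CCNE1, CDC25A and CDKN2C, against 15.6% of all genes. The median size of the log2 change, taken without its sign, was 0.16 for these genes and 0.21 for all genes after PRMT5 knockdown, and 0.18 against 0.23 after MEP50 knockdown. Of these calls, 14 of 19 higher and 13 of 14 lower in the PRMT5 knockdown, and 12 of 14 and 15 of 17 in the MEP50 knockdown, held under all 17 other ways of processing the counts.

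**Figure D1:**
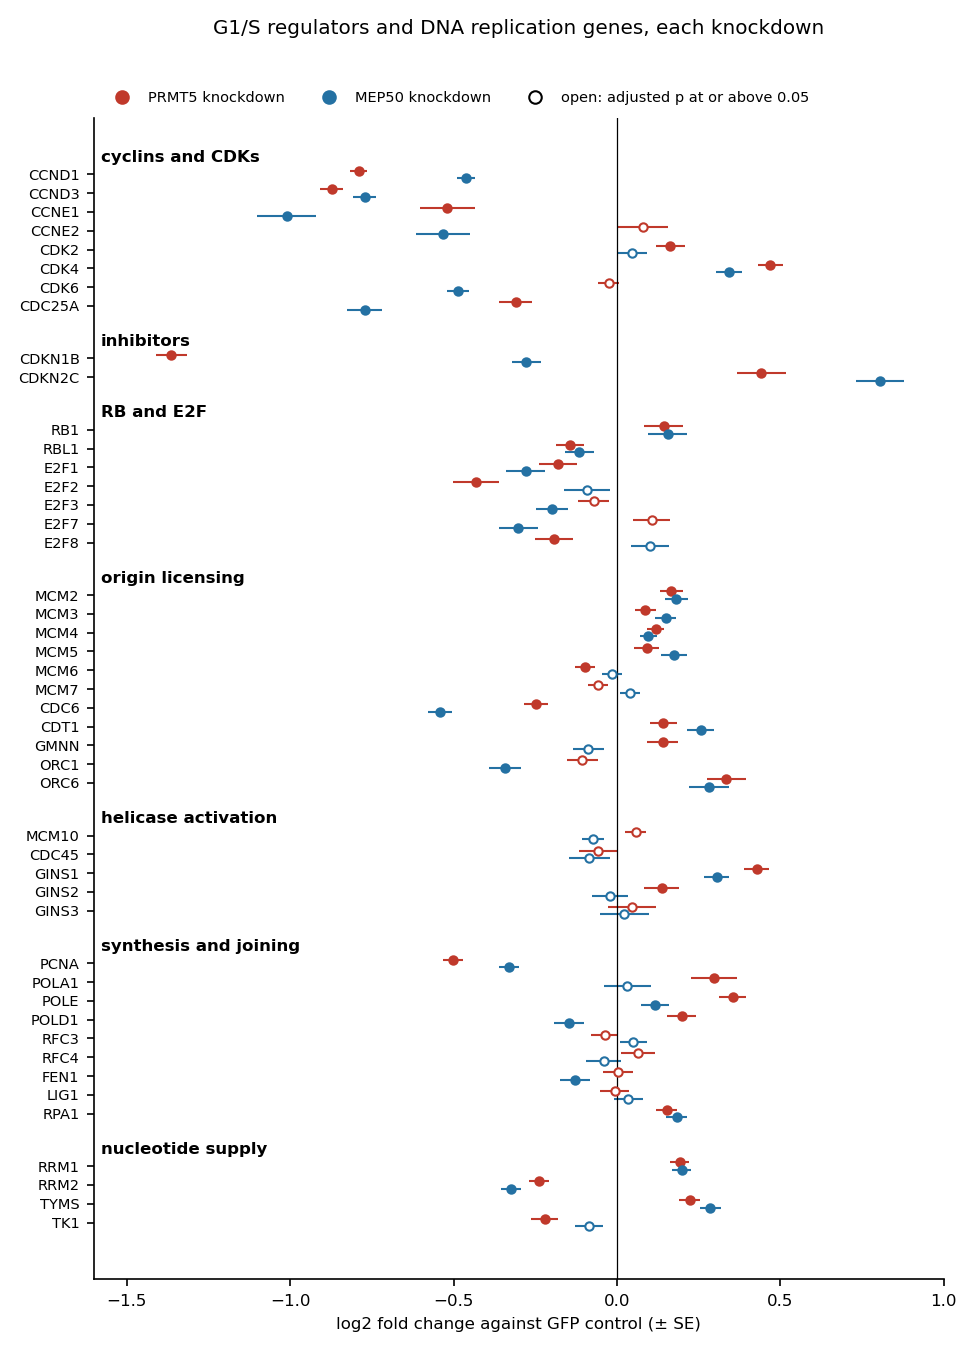
Log2 fold change (horizontal axis, ± SE) of the 46 tested genes in each knockdown over the GFP control, in blocks by role, with filled points for an edgeR adjusted p under 0.05. CDKN1B in the PRMT5 knockdown (-1.36) and CCNE1 in the MEP50 knockdown (-1.01) lie farthest below 0, and CDKN2C in the MEP50 knockdown (0.81) farthest above.

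**Figure D2:**
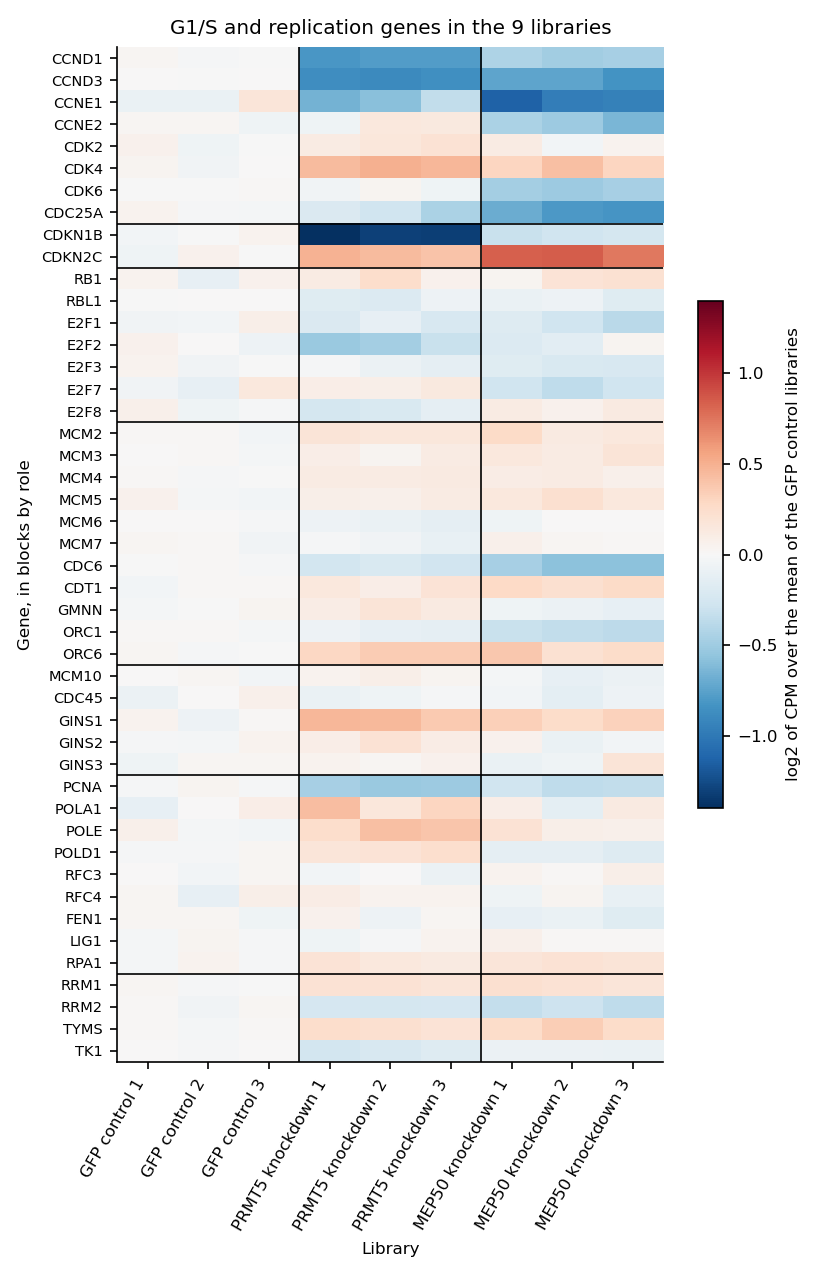
Each tested gene (rows, in blocks by role) in each of the 9 libraries (columns), coloured by its log2 CPM relative to the mean of the 3 control libraries. Replicates of a group share their colours for CCND1, CCND3 and CDKN1B, while most MCM and RFC rows stay pale in all 9 libraries.

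Among the 9 cyclin and CDK genes, counted with the phosphatase gene CDC25A, 8 were tested. In the PRMT5 knockdown 2 rose, 4 fell and 2 were not called, with a median of -0.17. In the MEP50 knockdown 1 rose, 6 fell and 1 was not called, with a median of -0.51. The shares over all genes were 26.1% higher and 24.9% lower for PRMT5, and 26.5% and 25.2% for MEP50. Groups by role are small, and whether their counts differ from these shares was not tested. CCND1 (ENSG00000110092) encodes cyclin D1, the partner that activates CDK4 and CDK6. It measured 619.8, 605 and 607 CPM in the control, 348, 356 and 354 CPM in the PRMT5 knockdown and 452, 435 and 442 CPM in the MEP50 knockdown. All 3 groups were separate, with the PRMT5 knockdown lowest. Its log2 fold change was -0.79 ± 0.0268 (adjusted p = 6.06e-26) in the PRMT5 knockdown, to 57.8% of the control, and -0.46 ± 0.0268 (adjusted p = 3.46e-18) in the MEP50 knockdown, to 72.6%.

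CCND3 (ENSG00000112576), the gene for cyclin D3, measured 181, 180.1 and 181 CPM in the control, 99.3, 97.4 and 99.7 CPM in the PRMT5 knockdown and 108, 109 and 102 CPM in the MEP50 knockdown. Every knockdown library lay far below every control library. The log2 fold change was -0.87 ± 0.0352 (adjusted p = 2e-23) after PRMT5 knockdown and -0.77 ± 0.0356 (adjusted p = 2.06e-21) after MEP50 knockdown, which left 54.6% and 58.6% of the control level. Per kilobase of the principal transcript, control cells held 142 ± 1.93 CPM of CCND1 (SD, n = 3), 86.8 ± 0.344 CPM of CCND3 and 0.00347 CPM of CCND2, so the D-type cyclin messages of this line came almost wholly from the former pair. The CCND1 exons share 10.3% of their bases with the gene LTO1 on the opposite strand, and the strand setting of the counting is not given in the sources used here.

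The kinase partners of cyclin D behaved differently from it and from each other. CDK4 measured 101, 95.3 and 98.4 CPM in the control, 134, 139 and 135 CPM in the PRMT5 knockdown and 121, 132 and 121 CPM in the MEP50 knockdown. It was higher in every knockdown library than in any control library, with log2 fold changes of 0.47 ± 0.0382 (adjusted p = 1.24e-13) and 0.34 ± 0.0389 (adjusted p = 8.3e-10) for the PRMT5 and MEP50 knockdowns. CDK4 shares 43.2% of its exonic bases with TSPAN31 on the opposite strand. CDK6 measured 190.0, 189 and 192 CPM in the control, 184, 196 and 182 CPM in the PRMT5 knockdown and 137, 134 and 138 CPM in the MEP50 knockdown. The PRMT5 libraries overlapped the control libraries, and the MEP50 libraries were lower than both. The CDK6 log2 fold change was -0.02 ± 0.0326 in the PRMT5 knockdown (95% interval -0.09 to 0.04, adjusted p = 0.557) and -0.49 ± 0.0336 (adjusted p = 9.35e-16) in the MEP50 knockdown.

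CCNE1 (ENSG00000105173), the gene for cyclin E1, which activates CDK2 at the entry to S phase, measured 25.2, 25.3 and 30.1 CPM in the control, 17.0, 17.9 and 21.2 CPM in the PRMT5 knockdown and 12.2, 13.7 and 13.9 CPM in the MEP50 knockdown. The 3 groups did not overlap, with the MEP50 knockdown lowest and the control highest. The log2 fold change was -0.52 ± 0.0844 (adjusted p = 1.96e-06) in the PRMT5 knockdown and -1.01 ± 0.0902 (adjusted p = 1.53e-12) in the MEP50 knockdown, leaving 69.6% and 49.5% of the control level. CCNE2, the gene for the related cyclin E2, measured 22.5, 22.6 and 21.3 CPM in the control, 21.1, 24.6 and 24.3 CPM in the PRMT5 knockdown and 16.2, 15.6 and 14.2 CPM in the MEP50 knockdown. Here the PRMT5 libraries overlapped the control and the MEP50 libraries were the lowest. Its log2 fold change was 0.08 ± 0.0764 after PRMT5 knockdown (95% interval -0.07 to 0.23, adjusted p = 0.396) and -0.53 ± 0.0819 (adjusted p = 6.36e-07) after MEP50 knockdown. Per kilobase, the control level was 13.2 ± 1.39 CPM for CCNE1 and 6.64 ± 0.220 CPM for CCNE2 (SD, n = 3). CCNE2 shares 37.0% of its exonic bases with INTS8 on the opposite strand.

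CDC25A (ENSG00000164045), the phosphatase gene, measured 85.2, 81.3 and 80.7 CPM in the control, 71.4, 67.7 and 60.4 CPM in the PRMT5 knockdown and 51.1, 47.3 and 46.5 CPM in the MEP50 knockdown. Its groups stood in the same order as those of CCNE1, without overlap. The log2 fold change was -0.31 ± 0.0501 (adjusted p = 1.69e-06) in the PRMT5 knockdown and -0.77 ± 0.0527 (adjusted p = 5.85e-16) in the MEP50 knockdown, to 80.8% and 58.6% of the control. CDK2, the kinase that cyclin E activates and CDC25A relieves, measured 76.5, 70.7 and 73.2 CPM in the control, 79.7, 82.2 and 84.6 CPM in the PRMT5 knockdown and 79.8, 71.6 and 75.8 CPM in the MEP50 knockdown. It rose slightly in the PRMT5 knockdown, by 0.16 ± 0.0446 (adjusted p = 0.00224), and was not called in the MEP50 knockdown, at 0.04 ± 0.0457 (adjusted p = 0.435), with libraries that overlapped the control. CDK2 shares 14.5% of its exonic bases with an antisense gene.

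**Figure D3:**
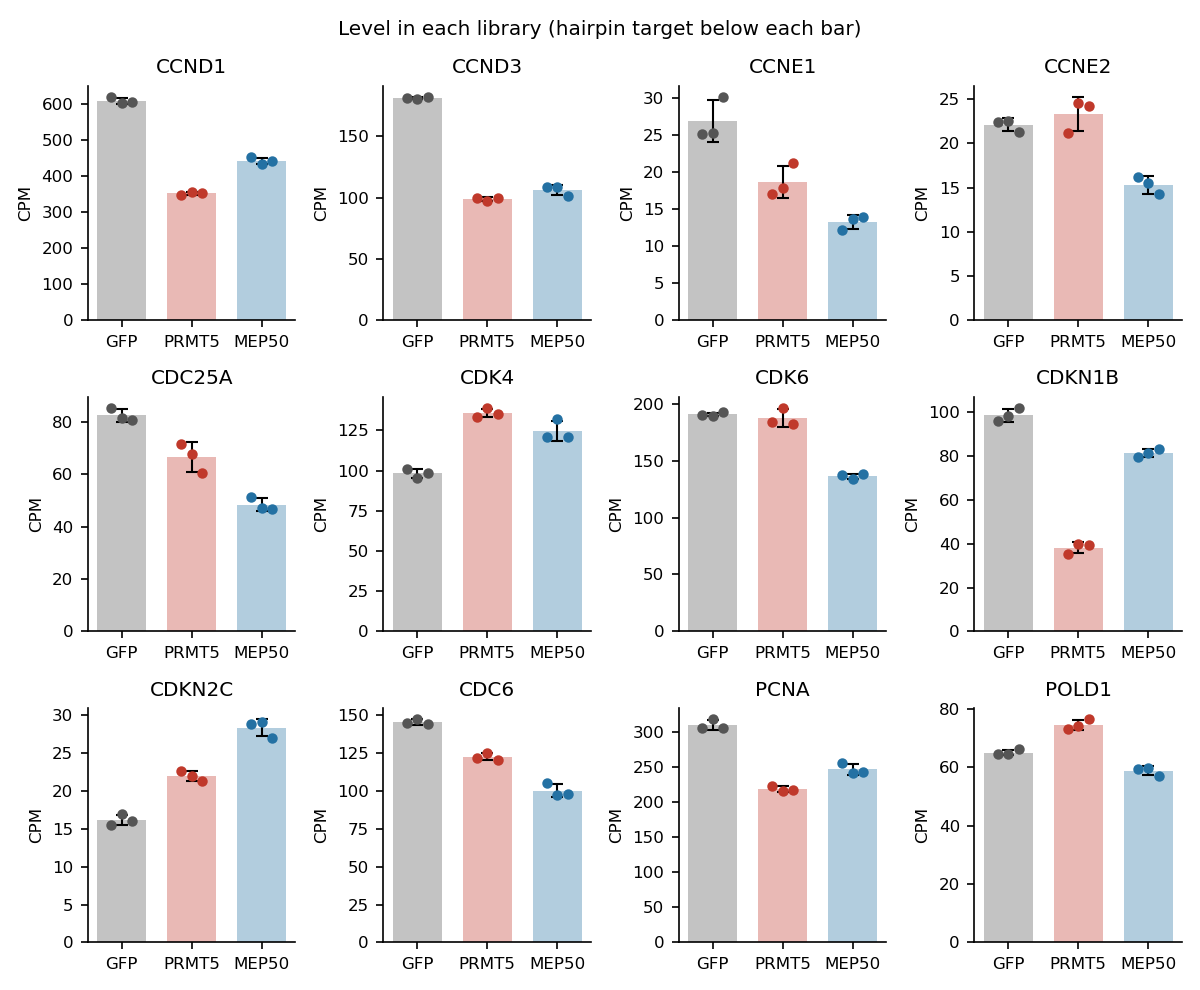
CPM of selected genes in each library (points, 3 per group) with the group mean (bar) and SD (error bar), by hairpin target. CCNE1 and CDC25A step down from the control to the PRMT5 knockdown and again to the MEP50 knockdown, while CDKN1B is lowest in the PRMT5 knockdown.

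The tested inhibitor genes moved in opposite directions. CDKN1B (ENSG00000111276) encodes p27, which binds and blocks cyclin E with CDK2. It measured 95.7, 98.1 and 102 CPM in the control, 35.3, 39.9 and 39.4 CPM in the PRMT5 knockdown and 79.4, 81.1 and 83.2 CPM in the MEP50 knockdown. The PRMT5 libraries held well under 50 CPM, and the MEP50 libraries lay between them and the control without touching either. The log2 fold change was -1.36 ± 0.0473 (adjusted p = 1.28e-25) in the PRMT5 knockdown, to 38.8% of the control, and -0.28 ± 0.0449 (adjusted p = 1.62e-06) in the MEP50 knockdown, to 82.5%. CDKN2C encodes p18, an inhibitor of CDK4 and CDK6. It measured 15.5, 16.9 and 16.1 CPM in the control, 22.6, 22.0 and 21.4 CPM in the PRMT5 knockdown and 28.9, 29.2 and 27.1 CPM in the MEP50 knockdown. The groups were separate in the reverse order, control lowest and MEP50 knockdown highest, with log2 fold changes of 0.44 ± 0.0743 (adjusted p = 3.6e-06) and 0.81 ± 0.0742 (adjusted p = 3.63e-12).

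Of the 7 RB and E2F genes, 1 rose, 4 fell and 2 were not called in each knockdown. Beside them, 26.1% of all genes rose and 24.9% fell in the PRMT5 knockdown, and 26.5% and 25.2% in the MEP50 knockdown. RBL1 (p107, a relative of RB) and E2F1 (an activating E2F) fell in both, E2F2 and E2F8 in the PRMT5 knockdown, and E2F3 and E2F7 in the MEP50 knockdown. E2F2, another activating E2F, measured 32.9, 31.8 and 30.1 CPM in the control, 22.1, 22.7 and 25.4 CPM in the PRMT5 knockdown and 27.7, 28.5 and 32.4 CPM in the MEP50 knockdown. It was lower in all PRMT5 libraries and overlapped the control in the MEP50 libraries, with -0.43 ± 0.0709 (adjusted p = 2.39e-06) and -0.09 ± 0.0708 (adjusted p = 0.292) on the log2 scale. E2F7, a repressing E2F, measured 46.7, 44.4 and 53.4 CPM in the control, 51.4, 50.9 and 53.1 CPM in the PRMT5 knockdown and 39.8, 37.5 and 39.7 CPM in the MEP50 knockdown. It fell in the MEP50 knockdown (-0.30 ± 0.0594, adjusted p = 3.99e-05), while its value in the PRMT5 knockdown was 0.11 ± 0.0567 (adjusted p = 0.116) and was called on leaving out replicate 3 (0.18, adjusted p 0.0124) of the GFP control. E2F8, the other repressing E2F, measured 42.4, 38.8 and 39.7 CPM in the control, 33.9, 34.8 and 36.9 CPM in the PRMT5 knockdown and 43.7, 41.8 and 43.9 CPM in the MEP50 knockdown. It fell in the PRMT5 knockdown (-0.19 ± 0.0573, adjusted p = 0.00487) and was not called in the MEP50 knockdown (0.10 ± 0.0575, adjusted p = 0.141).

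E2F1 measured 45.9, 46.0 and 50.3 CPM in the control, 41.2, 43.9 and 40.5 CPM in the PRMT5 knockdown and 42.0, 39.2 and 36.5 CPM in the MEP50 knockdown. The knockdown libraries lay below the control libraries, with log2 fold changes of -0.18 ± 0.0576 (adjusted p = 0.00853) for PRMT5 and -0.28 ± 0.0592 (adjusted p = 0.000118) for MEP50. The former call was lost on leaving out replicate 3 (-0.14, adjusted p 0.0672) of the GFP control. E2F3, an activating E2F, measured 65.6, 61.3 and 63.3 CPM in the control, 62.9, 59.9 and 58.3 CPM in the PRMT5 knockdown and 56.5, 54.7 and 54.4 CPM in the MEP50 knockdown. Its log2 change was -0.20 ± 0.0484 (adjusted p = 0.000609) in the MEP50 knockdown, where all libraries were lower than the control, and -0.07 ± 0.0471 (adjusted p = 0.214) in the PRMT5 knockdown, where they overlapped.

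RBL1 measured 80.7, 81.2 and 81.1 CPM in the control, 72.0, 70.7 and 77.1 CPM in the PRMT5 knockdown and 75.9, 77.0 and 71.9 CPM in the MEP50 knockdown. Every knockdown library was below every control library. Its log2 change was -0.14 ± 0.0433 (adjusted p = 0.00538) in the PRMT5 knockdown and -0.11 ± 0.0441 (adjusted p = 0.0274) in the MEP50 knockdown. The MEP50 call was lost on leaving out replicates 1 (-0.11, adjusted p 0.0592), 2 (-0.12, adjusted p 0.0545) or 3 (-0.11, adjusted p 0.0640) of the GFP control or replicate 3 (-0.09, adjusted p 0.131) of the MEP50 knockdown. RB1, the gene for the RB protein, was the one of these 7 that rose, by 0.14 ± 0.0590 (adjusted p = 0.0407) and 0.15 ± 0.0601 (adjusted p = 0.0289). Both RB1 calls were weak. The PRMT5 call was lost under 9 of the 17 alternatives and the MEP50 call under 5, DESeq2 (adjusted p 0.0803 and 0.0562) and the fit without a low-count filter (adjusted p 0.0547 and 0.0558) among them in both. RLE (adjusted p 0.0520) and upper-quartile scaling (adjusted p 0.0528) also ended the PRMT5 call. It was lost too on leaving out replicate 2 (0.09, adjusted p 0.300) of the GFP control, replicates 1 (0.14, adjusted p 0.0729) or 2 (0.08, adjusted p 0.307) of the PRMT5 knockdown or replicates 2 (0.14, adjusted p 0.0525) or 3 (0.13, adjusted p 0.0571) of the MEP50 knockdown, and the MEP50 call was lost on leaving out replicate 2 (0.10, adjusted p 0.243) of the GFP control or replicates 2 (0.14, adjusted p 0.0909) or 3 (0.11, adjusted p 0.180) of the MEP50 knockdown.

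Promoters show which of these genes carry E2F-type letters near their start. Windows of 300 bases, from 250 before to 50 after the RefSeq start (GRCh38.p14), were available for 40 of the 47 genes. They were searched on both strands for TTCCCGC, for the variant TTCGCGC, for the variant TTGCCGC and for the variant TTGGCGC, core letters of the E2F consensus, where matches may overlap. At least 1 match was found for 29 of 40 genes (72.5%), against 4169 of 27305 of all genes with a window (15.3%) and 4553 of 35116 of all windows (13.0%). This background was not matched for gene type, expression or base composition, so an excess over similar promoters was not tested. The stretches printed here hold the 110 bases before the start, on the gene's own strand, with matches in capitals. CDC25A and E2F1 are shown as genes that fell in both knockdowns, ORC1 and PCNA as replication genes that fell in at least 1 knockdown, MCM3 as a replication gene that rose, and CCNE1 and CDKN1B as strongly lowered genes with no match in the window.
CDC25A: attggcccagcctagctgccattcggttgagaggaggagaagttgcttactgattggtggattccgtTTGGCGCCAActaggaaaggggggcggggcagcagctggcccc
E2F1: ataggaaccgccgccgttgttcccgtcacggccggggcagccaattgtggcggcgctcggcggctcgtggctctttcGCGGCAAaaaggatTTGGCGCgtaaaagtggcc
ORC1: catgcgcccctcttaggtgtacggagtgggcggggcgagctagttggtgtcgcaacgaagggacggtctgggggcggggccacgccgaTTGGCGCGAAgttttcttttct
PCNA: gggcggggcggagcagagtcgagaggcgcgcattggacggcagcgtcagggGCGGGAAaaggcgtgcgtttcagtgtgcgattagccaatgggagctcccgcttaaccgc
MCM3: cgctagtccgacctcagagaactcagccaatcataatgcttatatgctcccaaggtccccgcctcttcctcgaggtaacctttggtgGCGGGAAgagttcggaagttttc
CCNE1: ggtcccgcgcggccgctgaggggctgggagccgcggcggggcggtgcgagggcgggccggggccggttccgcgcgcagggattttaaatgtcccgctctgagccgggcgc
CDKN1B: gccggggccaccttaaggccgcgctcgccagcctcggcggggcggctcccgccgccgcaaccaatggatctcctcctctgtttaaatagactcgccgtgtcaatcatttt

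These stretches lie at chr3:48188418-48188527 (-) for CDC25A, chr20:33686386-33686495 (-) for E2F1, chr1:52404424-52404533 (-) for ORC1, chr20:5126623-5126732 (-) for PCNA, chr6:52284743-52284852 (-) for MCM3, chr19:29811881-29811990 (+) for CCNE1 and chr12:12717258-12717367 (+) for CDKN1B, where the sign in brackets is the strand. In CDC25A a palindrome gives overlapping matches on both strands, and ORC1 carries an overlapping pair too. Genes of either direction carried the letters. In the PRMT5 knockdown they were present in 12 of 16 higher genes with a window, 9 of 12 lower genes and 8 of 12 genes not called. In the MEP50 knockdown they were present in 9 of 12 higher, 9 of 15 lower and 11 of 13 genes not called. By role, they were found in 1 of 5 cyclin and CDK genes (the phosphatase gene CDC25A) and 1 of 2 inhibitor genes (CDKN2C). They were also present in 5 of 6 RB and E2F genes, 8 of 9 licensing genes, 3 of 5 helicase activation genes, 7 of 9 synthesis genes and 4 of 4 nucleotide genes. CCND1, CCND2, CCNE2, CDK2, E2F8, MCM4 and MCM5 had no window and were not searched. A match is a run of letters and not a measured binding site, and its absence says nothing about a factor.

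**Figure D4:**
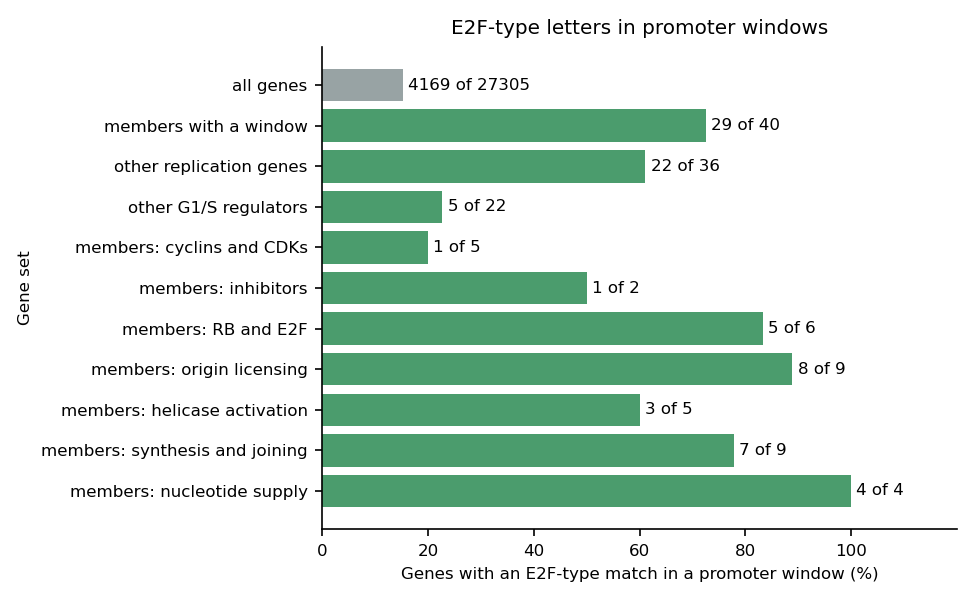
Share of genes (horizontal axis, percent) with an E2F-type match in a promoter window, for all genes and for gene groups, with the counts written beside each bar. The cyclin and CDK group (1 of 5, the match being CDC25A) stays near the 15.3% of all genes, and the licensing (8 of 9) and nucleotide (4 of 4) groups are far above it. CCND1, CCND2, CCNE2 and CDK2 of the cyclin and CDK group had no window and were not searched.

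Origin licensing is the loading of the MCM2 to MCM7 ring onto origins by the ORC complex with CDC6 and CDT1. Of its 11 genes, 7 rose, 2 fell and 2 were not called in the PRMT5 knockdown (median 0.09), beside 26.1% higher and 24.9% lower over all genes. In the MEP50 knockdown 6 rose, 2 fell and 3 were not called (median 0.10), beside 26.5% and 25.2% over all genes. CDC6 measured 145, 147 and 144 CPM in the control, 122, 125 and 121 CPM in the PRMT5 knockdown and 105, 97.3 and 97.7 CPM in the MEP50 knockdown. It fell stepwise without overlap, like CCNE1 and CDC25A, with log2 fold changes of -0.25 ± 0.0359 (adjusted p = 2.18e-07) in the PRMT5 knockdown and -0.54 ± 0.0370 (adjusted p = 6.65e-16) in the MEP50 knockdown. CDT1, its partner in loading, measured 72.5, 75.5 and 75.4 CPM in the control, 82.5, 79.3 and 84.8 CPM in the PRMT5 knockdown and 90.3, 86.9 and 89.6 CPM in the MEP50 knockdown. It went the other way in both, with 0.14 ± 0.0416 (adjusted p = 0.00423) and 0.26 ± 0.0420 (adjusted p = 2.1e-06), and the MEP50 libraries were the highest.

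ORC1, the largest origin recognition subunit, measured 57.1, 56.9 and 55.3 CPM in the control, 53.7, 52.0 and 51.8 CPM in the PRMT5 knockdown and 45.5, 44.5 and 43.6 CPM in the MEP50 knockdown. It fell in the MEP50 knockdown (-0.34 ± 0.0502, adjusted p = 2.38e-07), while its value in the PRMT5 knockdown, -0.11 ± 0.0485 (adjusted p = 0.0667), sat at the edge of the threshold and was called under 6 of the 17 alternatives, among them on leaving out replicate 1 (-0.13, adjusted p 0.0392) of the PRMT5 knockdown or replicates 1 (-0.11, adjusted p 0.0439) or 3 (-0.11, adjusted p 0.0491) of the MEP50 knockdown. ORC6, another subunit, measured 31.0, 30.2 and 30.3 CPM in the control, 37.4, 38.9 and 39.0 CPM in the PRMT5 knockdown and 39.5, 35.3 and 36.4 CPM in the MEP50 knockdown. It rose in both, by 0.34 ± 0.0594 (adjusted p = 8.55e-06) and 0.28 ± 0.0608 (adjusted p = 0.000148), with all knockdown libraries above the control. GMNN, the gene for geminin, which binds CDT1 and stops a further round of loading, was at 0.14 ± 0.0468 (adjusted p = 0.0119) in the PRMT5 knockdown and -0.09 ± 0.0484 (adjusted p = 0.133) in the MEP50 knockdown. The former call was lost on leaving out replicate 1 (0.12, adjusted p 0.0667) of the GFP control or replicate 2 (0.12, adjusted p 0.0734) of the PRMT5 knockdown.

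The 6 MCM ring genes moved by no more than 0.18 on the log2 scale in either knockdown. MCM2 measured 141, 140.1 and 135 CPM in the control, 157, 155 and 155 CPM in the PRMT5 knockdown and 167, 151 and 154 CPM in the MEP50 knockdown. The knockdown libraries all lay above the control. MCM2 rose by 0.17 ± 0.0353 (adjusted p = 0.000124) and 0.18 ± 0.0357 (adjusted p = 3.77e-05) in the PRMT5 and MEP50 knockdowns. MCM2 shares 22.7% of its exonic bases with an antisense gene. MCM4 rose by 0.12 ± 0.0263 (adjusted p = 0.000213) and 0.10 ± 0.0264 (adjusted p = 0.00215). The calls for these 2 genes held under every alternative. MCM3 and MCM5 rose in the MEP50 knockdown, by 0.15 ± 0.0323 (adjusted p = 0.000157) and 0.17 ± 0.0388 (adjusted p = 0.000211).

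Their PRMT5 calls were less firm. The fit without a low-count filter lost both (adjusted p 0.0745 for MCM3 and 0.114 for MCM5). MCM3 stood at 0.09 ± 0.0320 (adjusted p = 0.0216), a call lost on leaving out replicates 1 (0.09, adjusted p 0.0573) or 3 (0.07, adjusted p 0.132) of the GFP control or replicates 1 (0.07, adjusted p 0.117) or 3 (0.07, adjusted p 0.128) of the PRMT5 knockdown. MCM5 stood at 0.09 ± 0.0384 (adjusted p = 0.0450), a call lost under 14 of the 17 alternatives, among them every omission of a single library but GFP control replicate 1, where the log2 value ran from 0.07 to 0.10 and the adjusted p from 0.0538 to 0.223. MCM6 fell slightly in the PRMT5 knockdown (-0.10 ± 0.0312, adjusted p = 0.00846) and was at -0.02 ± 0.0315 (adjusted p = 0.715) in the MEP50 knockdown. MCM7 was called in neither (-0.06 and 0.04), though its PRMT5 value passed on leaving out replicate 3 (-0.09, adjusted p 0.0341) of the GFP control or replicate 1 (-0.09, adjusted p 0.0335) of the PRMT5 knockdown. Per kilobase, the control levels ran from 101 ± 1.00 CPM for MCM4 and 86.5 ± 2.35 for MCM7, through 53.3 ± 0.749 for MCM3 and 50.7 ± 0.356 for MCM6, to 38.3 ± 0.823 for MCM2 and 28.8 ± 1.13 for MCM5 (SD, n = 3). Adjacent levels in this order differed by more than either SD.

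Helicase activation joins CDC45 and the GINS complex to the loaded ring, with MCM10 as a helper. GINS1 measured 112, 104 and 110.1 CPM in the control, 149, 149 and 139.6 CPM in the PRMT5 knockdown and 137, 129 and 136 CPM in the MEP50 knockdown. It rose in both, by 0.43 ± 0.0377 (adjusted p = 1.2e-12) and 0.31 ± 0.0384 (adjusted p = 8.65e-09), with the PRMT5 libraries highest. The other 4 genes of this group changed little. GINS2 measured 44.9, 44.4 and 46.9 CPM in the control, 48.5, 52.4 and 48.9 CPM in the PRMT5 knockdown and 47.5, 42.6 and 44.2 CPM in the MEP50 knockdown. Its PRMT5 libraries were above the control and its MEP50 libraries overlapped it. GINS2 was at 0.14 ± 0.0535 (adjusted p = 0.0296) in the PRMT5 knockdown, a call lost on leaving out replicates 1 (0.12, adjusted p 0.0946) or 2 (0.12, adjusted p 0.120) of the GFP control or replicate 2 (0.10, adjusted p 0.184) of the PRMT5 knockdown, and at -0.02 in the MEP50 knockdown, not called. The PRMT5 call of GINS2 was also lost in the fit without a low-count filter (adjusted p 0.0622). CDC45, GINS3 and MCM10 were not called in either knockdown, with log2 values from -0.08 (CDC45, MEP50 knockdown) to 0.06 (MCM10, PRMT5 knockdown). GINS3 shares 10.9% of its exonic bases with an antisense gene. MCM10 was close to the threshold in the MEP50 knockdown, at -0.07 ± 0.0336 (adjusted p = 0.0610), and was called there under 8 of the 17 alternatives, among them on leaving out replicate 3 (-0.09, adjusted p 0.0457) of the GFP control or replicate 1 (-0.09, adjusted p 0.0253) of the MEP50 knockdown.

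For the 9 genes of DNA synthesis and joining, 4 rose, 1 fell and 4 were not called in the PRMT5 knockdown, beside 26.1% higher and 24.9% lower over all genes. In the MEP50 knockdown 2 rose, 3 fell and 4 were not called, close to the 26.5% higher and 25.2% lower over all genes. PCNA, the sliding clamp that holds polymerases on DNA, measured 305, 318 and 306 CPM in the control, 223, 216 and 217 CPM in the PRMT5 knockdown and 255, 241 and 243 CPM in the MEP50 knockdown. It was the one that fell in the PRMT5 knockdown, at -0.50 ± 0.0303 (adjusted p = 1.41e-17), and it fell in the MEP50 knockdown too, at -0.33 ± 0.0304 (adjusted p = 3.85e-12), with the 3 groups apart. PCNA also had the highest control level per kilobase of the 47 genes, at 228 ± 5.42 CPM (SD, n = 3). GENCODE 29 names 3 PCNA pseudogenes, and reads shared with such copies may be assigned differently by another counting.

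All 3 polymerase genes of the group rose in the PRMT5 knockdown. POLA1, the catalytic subunit of the polymerase that lays down primers, measured 31.4, 34.3 and 36.5 CPM in the control, 46.1, 38.1 and 41.9 CPM in the PRMT5 knockdown and 36.3, 31.0 and 37.1 CPM in the MEP50 knockdown. POLE, the catalytic subunit of the leading strand polymerase, measured 149, 139 and 138 CPM in the control, 168, 189.8 and 186 CPM in the PRMT5 knockdown and 163, 149.7 and 149 CPM in the MEP50 knockdown. Every PRMT5 library was above every control library for both, with 0.30 ± 0.0700 (adjusted p = 0.000541) for POLA1 and 0.35 ± 0.0413 (adjusted p = 1.33e-08) for POLE. In the MEP50 knockdown POLA1 was not called (0.03 ± 0.0725, adjusted p = 0.743), and POLE stood at 0.12 ± 0.0422 (adjusted p = 0.0203). This POLE call was lost under upper-quartile scaling (adjusted p 0.0548). It was lost too on leaving out replicates 2 (0.10, adjusted p 0.101) or 3 (0.10, adjusted p 0.0930) of the GFP control or replicate 1 (0.08, adjusted p 0.123) of the MEP50 knockdown. POLD1, the catalytic subunit of the lagging strand polymerase, measured 64.6, 64.5 and 66.1 CPM in the control, 73.2, 74.2 and 76.5 CPM in the PRMT5 knockdown and 59.6, 59.8 and 57.2 CPM in the MEP50 knockdown. It was the only one of the 46 genes called in opposite directions, rising by 0.20 ± 0.0437 (adjusted p = 0.000208) in the PRMT5 knockdown and falling in the MEP50 knockdown (-0.15 ± 0.0454, adjusted p = 0.00672), and both calls held under all 17 alternatives.

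RPA1, which coats single-stranded DNA, measured 183, 192 and 184 CPM in the control, 213, 206 and 203 CPM in the PRMT5 knockdown and 209, 215 and 210.4 CPM in the MEP50 knockdown. Both knockdown groups were above the control, and RPA1 rose by 0.15 ± 0.0313 (adjusted p = 8.45e-05) and 0.18 ± 0.0316 (adjusted p = 5.26e-06). FEN1, the nuclease that trims flaps between lagging strand fragments, measured 75.4, 75.6 and 71.3 CPM in the control, 77.1, 70.3 and 75.6 CPM in the PRMT5 knockdown and 68.2, 69.4 and 65.8 CPM in the MEP50 knockdown. It was at 0.00 ± 0.0447 (adjusted p = 0.955) in the PRMT5 knockdown and at -0.13 ± 0.0459 (adjusted p = 0.0167) in the MEP50 knockdown, where the call was lost on leaving out replicates 1 (-0.11, adjusted p 0.0710) or 2 (-0.12, adjusted p 0.0612) of the GFP control or replicate 3 (-0.11, adjusted p 0.0707) of the MEP50 knockdown. RFC3 and RFC4, which load the clamp, and LIG1, which seals nicks, were not called in either knockdown. Their log2 values lay between -0.04 (RFC4, MEP50 knockdown) and 0.06 (RFC4, PRMT5 knockdown).

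Among the 4 enzymes of nucleotide supply, RRM1 and TYMS rose and RRM2 fell in both knockdowns, and TK1 fell in the PRMT5 knockdown. RRM1, the large subunit of ribonucleotide reductase, measured 222, 216 and 217 CPM in the control, 252, 251 and 246 CPM in the PRMT5 knockdown and 254, 252 and 246 CPM in the MEP50 knockdown. RRM2, the small subunit of the same enzyme, measured 285, 273 and 287 CPM in the control, 239, 237 and 239.8 CPM in the PRMT5 knockdown and 224, 231 and 221 CPM in the MEP50 knockdown. The subunits moved in opposite directions, without overlap with the control: RRM1 rose by 0.19 ± 0.0293 (adjusted p = 5.49e-07) and 0.20 ± 0.0296 (adjusted p = 3.32e-07), and RRM2 changed by -0.24 ± 0.0296 (adjusted p = 7.83e-09) and -0.32 ± 0.0300 (adjusted p = 4.34e-12). TYMS, which makes thymidylate, measured 161, 157 and 162 CPM in the control, 190.2, 187 and 183 CPM in the PRMT5 knockdown and 191, 203 and 191 CPM in the MEP50 knockdown. The knockdown groups were both above the control, and TYMS rose by 0.22 ± 0.0324 (adjusted p = 2.36e-07) and 0.29 ± 0.0327 (adjusted p = 1.03e-09). TK1, the thymidine kinase of S phase cells, measured 77.4, 76.4 and 77.7 CPM in the control, 64.4, 66.1 and 68.0 CPM in the PRMT5 knockdown and 72.8, 73.0 and 72.6 CPM in the MEP50 knockdown. It fell in the PRMT5 knockdown (-0.22 ± 0.0422, adjusted p = 2.75e-05) and was not called in the MEP50 knockdown (-0.08 ± 0.0426, adjusted p = 0.0963). The MEP50 libraries of TK1 still lay below the control libraries, and its MEP50 value was called with scaling by library totals (-0.10, adjusted p 0.04996). TYMS shares 39.1% of its exonic bases with ENOSF1 on the opposite strand and RRM2 20.2% with a gene on its own strand, and GENCODE 29 names 3 pseudogenes for RRM2 and 2 for TYMS.

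The direct comparison asks where the PRMT5 knockdown and MEP50 knockdown groups differed. Of the 46 genes, 19 were higher and 11 lower in the PRMT5 knockdown than in the MEP50 knockdown, and 16 were not called, where 19.2% of all genes were higher and 20.5% lower. The median was 0.03 against 0.00 for all genes. Only CDKN1B and CCNE2 passed 1.5-fold, against 7.54% of all genes. All 8 tested cyclin, CDK and CDC25A genes were called, 6 of them higher in the PRMT5 knockdown, and both inhibitors were lower there.

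The largest difference was that of CDKN1B, at -1.09 ± 0.0484 (adjusted p = 4.13e-21). CDKN2C followed it in direction, at -0.36 ± 0.0714 (adjusted p = 6.45e-05), and CCND1 at -0.33 ± 0.0270 (adjusted p = 4.09e-13). On the other side stood CCNE2 at 0.61 ± 0.0811 (adjusted p = 5.82e-08), CCNE1 at 0.49 ± 0.0925 (adjusted p = 3.44e-05), CDC25A at 0.46 ± 0.0532 (adjusted p = 2.7e-09) and CDK6 at 0.46 ± 0.0335 (adjusted p = 1.37e-14). The cyclin E genes and their activating phosphatase were thus lower in the MEP50 knockdown, and the p27 and cyclin D1 messages lower in the PRMT5 knockdown. The E2F genes split in the same test, with E2F7 at 0.41 (adjusted p = 3.26e-07), E2F2 at -0.34 (adjusted p = 0.000202) and E2F8 at -0.29 (adjusted p = 6.82e-05).

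Among the replication genes, POLD1 (0.34 ± 0.0448, adjusted p = 4.14e-08), CDC6 (0.29 ± 0.0372, adjusted p = 2.44e-08), POLE (0.24 ± 0.0416, adjusted p = 2.52e-05), ORC1 (0.24 ± 0.0503, adjusted p = 0.000187), GMNN (0.23 ± 0.0478, adjusted p = 0.000173) and MCM10 (0.13 ± 0.0335, adjusted p = 0.00154) were higher in the PRMT5 knockdown. PCNA (-0.17 ± 0.0307, adjusted p = 1.57e-05), TK1 (-0.14 ± 0.0429, adjusted p = 0.00988) and MCM7 (-0.10 ± 0.0306, adjusted p = 0.0102) were lower. The calls named so far, 19 of the 30, held under all 17 alternatives. The other 11, which belong to CCND3, CDK2, CDK4, E2F3, MCM6, CDT1, GINS1, GINS2, POLA1, FEN1 and RRM2, were each lost in at least 1.

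POLA1 had the largest main value of those 11, 0.27 ± 0.0709 (adjusted p = 0.00277), and lost its call on leaving out replicate 2 (0.18, adjusted p 0.0514) of the MEP50 knockdown. The other 10 lay between -0.11 and 0.16 on the log2 scale, and leaving out any 1 of the 9 libraries lost at least 1 of these calls, with adjusted p from 0.0505 (MCM6 without GFP control replicate 2) to 0.280 (CDK2 without MEP50 knockdown replicate 2). In the other direction, RFC3 and MCM3, not called, passed without MEP50 knockdown replicate 2 (adjusted p 0.0495 and 0.0485), as did MCM5 and TYMS without MEP50 knockdown replicate 1 (adjusted p 0.0427 and 0.0451).

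**Figure D5:**
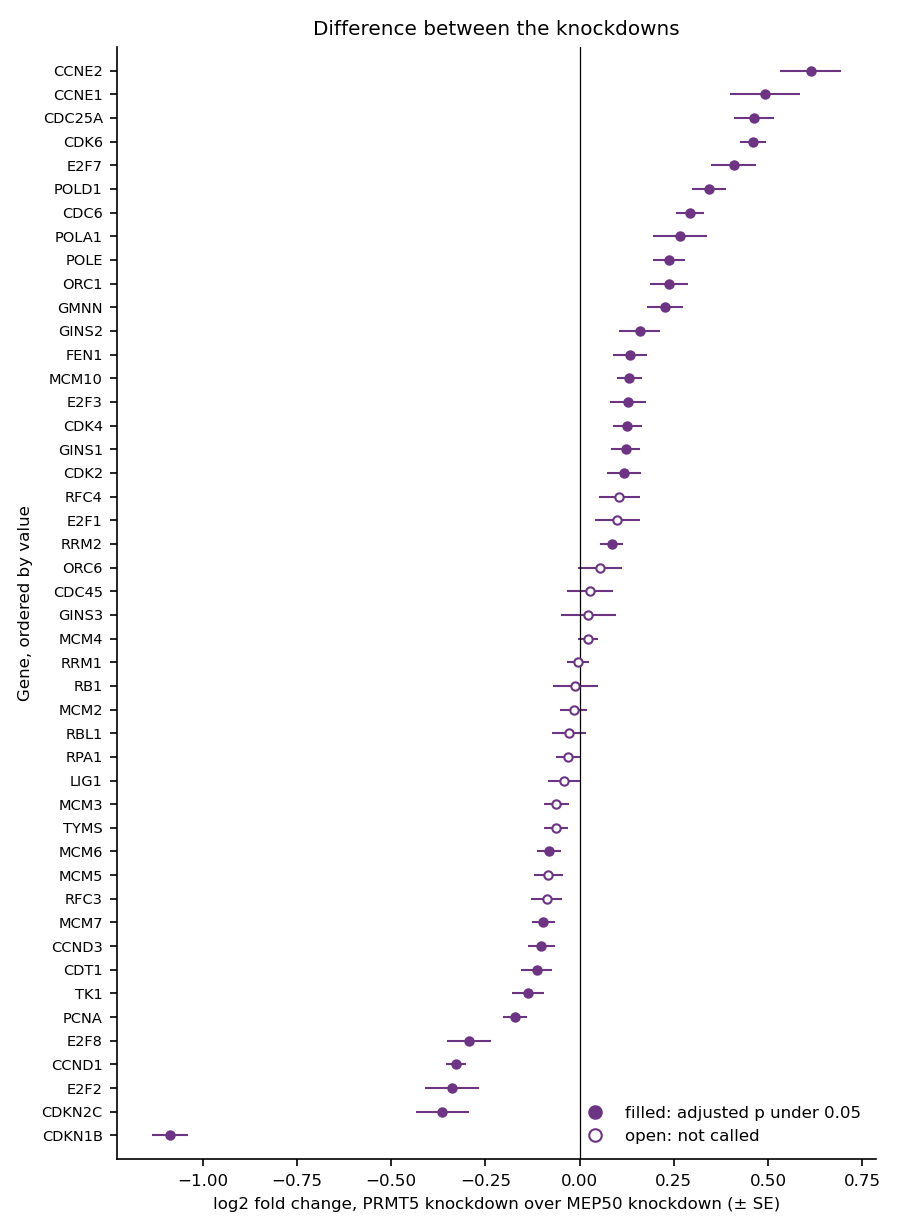
Log2 fold change of the PRMT5 knockdown over the MEP50 knockdown (horizontal axis, ± SE) for the 46 tested genes, ordered by value, filled where the edgeR adjusted p is under 0.05. CCNE2 (0.61), CCNE1 (0.49), CDC25A (0.46) and CDK6 (0.46) stand at one end and CDKN1B (-1.09) at the other.

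Other genes of the same processes came from 2 lists compiled for comparison. Of 24 further G1/S regulators found in the table, 22 were tested. In the PRMT5 knockdown 4 rose and 7 fell (median -0.06), beside 26.1% higher and 24.9% lower over all genes. In the MEP50 knockdown 9 rose and 7 fell (median 0.04), beside 26.5% higher and 25.2% lower over all genes. BTG2, an antiproliferative gene, rose by 0.64 ± 0.0611 (adjusted p = 1.09e-11) and 1.02 ± 0.0610 (adjusted p = 1.02e-17). CDKN1A, the gene for the inhibitor p21, rose in the MEP50 knockdown (0.67 ± 0.0421, adjusted p = 1.86e-16), while its PRMT5 value was -0.13 ± 0.0429 (adjusted p = 0.0117), a call lost on leaving out replicate 2 (-0.11, adjusted p 0.0552) of the GFP control. The knockdowns differed for CDKN1A by -0.80 ± 0.0422 (adjusted p = 4.14e-18). TFDP1, the dimer partner of E2F proteins, rose in the PRMT5 knockdown (0.30 ± 0.0356, adjusted p = 1.76e-09) and by less in the MEP50 knockdown (0.11 ± 0.0363, adjusted p = 0.0109). Its MEP50 call was lost in the fit without a low-count filter (adjusted p 0.0566). That call was lost too on leaving out replicate 2 (0.08, adjusted p 0.105) of the GFP control or replicate 2 (0.09, adjusted p 0.0527) of the MEP50 knockdown. CCNH, a cyclin of the CDK-activating kinase, fell in both, at -0.24 ± 0.0693 (adjusted p = 0.00390) and -0.45 ± 0.0720 (adjusted p = 1.29e-06). E2F6, a repressing E2F, fell in the MEP50 knockdown (-0.69 ± 0.0737, adjusted p = 2.15e-10), and its PRMT5 value was -0.18 ± 0.0694 (adjusted p = 0.0270), a call lost on leaving out replicate 1 (-0.15, adjusted p 0.120) of the GFP control or replicates 1 (-0.17, adjusted p 0.0654) or 3 (-0.16, adjusted p 0.0838) of the PRMT5 knockdown. SKP2, part of the ligase that marks p27 for destruction, was lower in the PRMT5 knockdown than in the MEP50 knockdown (-0.39 ± 0.0380, adjusted p = 5.52e-11), with -0.07 ± 0.0381 (adjusted p = 0.128) and 0.32 ± 0.0380 (adjusted p = 3.31e-09) against the control.

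The 47 further replication genes were all tested. In the PRMT5 knockdown 20 rose and 6 fell (median 0.07), beside 26.1% higher and 24.9% lower over all genes. The count of higher genes thus lay above the background, as it did for the main set of genes, and that of lower genes below it. In the MEP50 knockdown 16 rose and 11 fell (median 0.05), beside 26.5% higher and 25.2% lower over all genes. There the excess of lower genes seen in the main set was absent. An excess over genes of similar read depth was not tested. TOPBP1, a helicase activation factor, rose in both, by 0.42 ± 0.0343 (adjusted p = 1.9e-13) in the PRMT5 knockdown and 0.14 ± 0.0351 (adjusted p = 0.00125) in the MEP50 knockdown. PRIM2, a primase subunit, also rose in both, by 0.35 ± 0.0708 (adjusted p = 6.17e-05) and 0.39 ± 0.0721 (adjusted p = 1.6e-05). DONSON, a factor of replisome assembly, fell in both, at -0.34 ± 0.0789 (adjusted p = 0.000374) and -0.45 ± 0.0816 (adjusted p = 1.3e-05). POLE3, an accessory subunit of the leading strand polymerase, differed most between the knockdowns (0.76 ± 0.0438, adjusted p = 1.27e-17), with 0.24 ± 0.0418 (adjusted p = 5.51e-06) against the control in the PRMT5 knockdown and -0.52 ± 0.0445 (adjusted p = 5.94e-13) in the MEP50 knockdown, both called. POLD4, a small subunit of the lagging strand polymerase, rose in the MEP50 knockdown (0.51 ± 0.122, adjusted p = 0.000508) and was lower in the PRMT5 knockdown by comparison (-0.46 ± 0.120, adjusted p = 0.00202), where its value against the control was 0.05 ± 0.123 (adjusted p = 0.767). POLD3, another subunit of it, was higher in the PRMT5 knockdown than in the MEP50 knockdown (0.35 ± 0.0520, adjusted p = 7.16e-07), with -0.05 ± 0.04998 (adjusted p = 0.388) and -0.40 ± 0.0521 (adjusted p = 1.83e-08) against the control.

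The authors' deposited tables of changed genes list 30 of the 47 genes for each knockdown, 16 higher and 14 lower for PRMT5 and 13 higher and 17 lower for MEP50. The authors' deposited tables hold 6807 and 6832 genes in all, and the number of genes behind them that were tested is not given in the sources used here, so no share can be set beside these counts. RB1, MCM5 and GINS2 were called here but are not listed in the authors' deposited table for PRMT5, nor is RB1 in that for MEP50. No gene of the 47 is listed there and not called here. The deposited tables carry adjusted p-values of both DESeq2 and edgeR, while calls here rest on edgeR alone. Under DESeq2 run here, RB1 (adjusted p 0.0803 for PRMT5 and 0.0562 for MEP50) and MCM5 (adjusted p 0.0807 for PRMT5) were not called. GINS2 kept its call under DESeq2.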

How the data were processed

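The authors deposited a table of whole-number read counts per Ensembl gene, not normalized, and per knockdown a table of log2 fold changes with adjusted p-values. Trim Galore, STAR, HTSeq, DESeq2, edgeR and the build hg19 are named, per the submitters' processing notes; their versions and the strand setting are not given in the sources used here. Libraries were stranded after ribosomal RNA depletion, per the labels' protocols. The 5 summary lines that name no gene were left out of library totals.

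Counts of all 9 libraries were fitted in edgeR 4.0.16 (R 4.3.3): filterByExpr, TMM scaling (factors 0.99 to 1.01), glmQLFit with group as the only term, glmQLFTest, and Benjamini-Hochberg adjustment over 14582 genes. CPM used TMM library sizes, and intervals are the log2 change ± 1.96 SE. The biological coefficient of variation was 0.0395. The fit was tested on simulated data. Lengths are of GENCODE 29 principal transcripts.

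Alternatives were other scalings, DESeq2 1.42.0, other filters, a replicate block, a fit of 6 libraries and leaving out each library. Named in full were up to 3 called genes per role and comparison with the largest changes, CCNE1 and CDC25A, and up to 3 genes per comparison list; other values are given in short. Members and lists were chosen with earlier results of these data known. LIN37 and UHRF1, entries of the comparison lists, matched no row and were not used here.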

Additional observations from a re-analysis of the deposited data

How the results depend on the processing

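Under 17 alternatives none of the 6 counts of higher or lower genes moved by more than 1.5 times. Leaving out 1 library at a time gave 15 to 18 higher and 14 to 16 lower genes for PRMT5 against GFP, 12 to 14 and 15 to 18 for MEP50 against GFP, and 13 to 19 and 8 to 13 for PRMT5 against MEP50. Of 2346 single values under an alternative, 2230 kept their call, 94 lost it, 22 gained one and 0 called values changed sign. The largest shift of the median of all genes under another scaling was 0.0213 on the log2 scale. Correlations of same-numbered libraries' deviations were small, between -0.04 and 0.05 over 9 pairs. Between GFP control and MEP50 knockdown, same-numbered pairs lay from 0.04 to 0.05 and the others from -0.05 to 0.002. Pairs that included the PRMT5 knockdown showed no such split. In all, 6 of 9 libraries correlated best with one of their own number, so whether the numbers pair the libraries stays undecided. With the replicate block the counts were 19 and 14, 14 and 17, and 19 and 11, as without it, and 0 single calls changed. Values of CCND2, at 0 to 4 reads, are limited by depth.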
